A study of Mus musculus with 2 samples.

Results

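Mir126a and Mir126b are microRNA genes that lie on opposite strands of the same place on mouse chromosome 2, inside the endothelial gene Egfl7. They were taken from the deposited tables as the rows whose Ensembl identifiers carry these symbols in GENCODE M21, which gave 2 of 2202 microRNA genes. Small RNA, limited by the labels to short fragments of microRNA size, was sequenced from whole heart of male B6CASTF1/J mice at 2 months of age, an F1 hybrid of C57BL/6J and CAST/EiJ. There was 1 group of 2 libraries, no treatment and no other genotype. The labels number the animals as different males but give both the same donor identifier, so differences between the libraries may be technical.

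MicroRNAs are cut from hairpin transcripts, and bases 2 to 8 of the mature strand, the seed, pair with target messages. miR-126 is known as the leading microRNA of endothelial cells, the lining of blood vessels, and is made from an intron of Egfl7, whose protein is secreted by endothelial cells. In mouse and zebrafish, loss of miR-126 impairs vessel integrity, and its 3p arm represses Spred1 and Pik3r2, inhibitors of the signalling that follows vascular endothelial growth factor. A whole heart holds endothelial cells beside heart muscle, smooth muscle, fibroblasts and blood cells.

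The hairpins are printed first because their overlap sets what each deposited count can hold. Sequences are from RefSeq on GRCm38.p6, given 5′ to 3′ on each gene's own strand, and capitals mark the annotated mature arms. Mir126a lies at chr2:26591357-26591429 on the plus strand and Mir126b at chr2:26591363-26591420 on the minus strand, the same positions as in GENCODE M21 on mm10.
Mir126a: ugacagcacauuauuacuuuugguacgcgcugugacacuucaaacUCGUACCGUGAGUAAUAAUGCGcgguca
Mir126b: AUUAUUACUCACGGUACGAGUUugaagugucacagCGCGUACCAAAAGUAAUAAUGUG
The Mir126a hairpin is 73 bases long, and the Mir126b hairpin, 58 bases long, is the exact reverse complement of its inner part. Mir126b thus covers 79.5% of Mir126a and leaves 6 bases free at its start and 9 at its end. In the minimum free energy structure, Mir126a formed 27 base pairs at -31.2 kcal per mol, and the shorter Mir126b formed 21 base pairs at -19.3 kcal per mol.

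The mature arms listed in RefSeq show which reads would tell the genes apart, and here capitals mark the seed.
miR-126a-3p: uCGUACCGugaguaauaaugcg
miR-126b-3p: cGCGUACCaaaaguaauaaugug
miR-126b-5p: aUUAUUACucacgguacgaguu
miR-126a-3p lies opposite miR-126b-5p over 19 of its 22 bases, as the map of the hairpins shows. The 3p arms of the 2 genes resemble each other, with 17 identical bases of 22 in the best alignment without gaps. Their seeds, CGUACCG in miR-126a-3p and GCGUACC in miR-126b-3p, share a stretch of 6 bases and are shifted by 1 base. None of the 3 seeds is also the seed of another of the 1738 mature sequences of the RefSeq table. For Mir126a that table lists miR-126a-3p only. The other arm of the Mir126a hairpin was therefore left out of the comparisons of arms and seeds and of the searches for target sites. Despite the likeness, the longest stretch the 2 hairpins share in the same sense is 10 bases, and neither shares more than 12 bases with any other of the 2202 microRNA genes. Among 141767 annotated transcripts, the exact miR-126a-3p sequence occurred in those of Egfl7 and Mir126a only. A read of either gene therefore has no second exact place among annotated microRNA genes, unlike reads of genes with near-identical copies, which the deposited counts leave out.

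**Figure D1:**
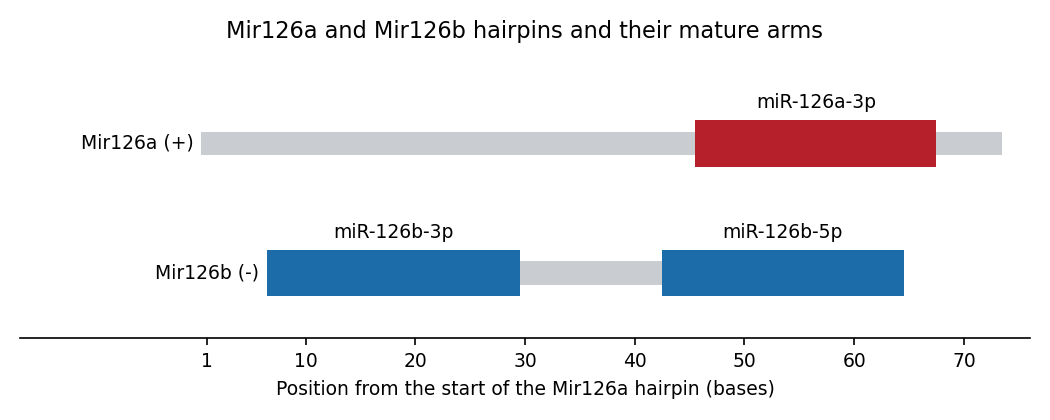
Map of the Mir126a hairpin (plus strand, top) and the Mir126b hairpin (minus strand, bottom) as grey bars, with RefSeq mature arms as coloured blocks, in bases from the start of the Mir126a hairpin. miR-126a-3p lies opposite miR-126b-5p over 19 bases, and Mir126a extends beyond Mir126b by 6 bases on the left and 9 on the right.

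Egfl7 spans chr2:26580014-26593120 on the plus strand, so Mir126a lies on the strand of its host and Mir126b opposite to it. Of 19 annotated Egfl7 transcripts, 8 span the hairpin with an intron, 7 of them protein coding, and 10 do not reach it. In Egfl7-201, a protein-coding transcript of 10 exons, the hairpin lies in intron 7, which is 600 bases long, 293 bases after the upstream exon and 234 bases before the next. The remaining transcript, Egfl7-206, has exon 4 at chr2:26590899-26591563 across the hairpin and is annotated as a retained intron. A further protein-coding gene on the same strand, Gm20532, spans the hairpin at chr2:26586639-26635634. The nearest other microRNA gene, Mir6996, is 121237 bases away and had 0 and 2 counts in replicates 1 and 2.

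Mir126a was among the microRNA genes with the most counted reads in both libraries, and Mir126b was at the counting floor. Reads that mapped to several places, 48.0% and 46.4% of all reads in replicates 1 and 2, are in no gene's count. Levels of genes with copies elsewhere may thus be too low to compare with Mir126a. On the strand of the gene, Mir126a (ENSMUSG00000065540.1) had 190616 reads in replicate 1 and 267615 reads in replicate 2. This was 52212 CPM (counts per 1000000 reads on the strand of microRNA genes) in replicate 1 and 70228 CPM in replicate 2, a mean of 61220 CPM ± 12739 (SD, n = 2). As a share of microRNA counts, Mir126a took 5.22% in replicate 1, with an exact Clopper-Pearson 95% interval of 5.20 to 5.24, and in replicate 2 it took 7.02%, with an interval of 6.997 to 7.05. The intervals do not overlap, and they cover counting error only. In whole tissue, more endothelial cells and more of the microRNA per cell cannot be told apart.

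Mir126b (ENSMUSG00000105799.1) had 0 reads in replicate 1, a limit of 0.822 CPM at 3 counts, with an exact 95% interval up to 1.01 CPM. In replicate 2 it had 4 reads, or 1.05 CPM (exact 95% interval 0.286 to 2.69). It thus stayed under 2 CPM, the level used here to call a gene detected, in both libraries. Within replicate 1, Mir126a was at least 63539-fold higher than Mir126b, taking 3 counts as the floor. Within replicate 2 the ratio of Mir126a to Mir126b was 66904, with a counting interval of 26130 to 245550. On the log2 scale of CPM + 0.5 the difference was 16.67 in replicate 1 and 15.47 in replicate 2, and the value in replicate 1 depends on the pseudocount. The order was the same in both libraries, and an exact sign-flip permutation test of 2 libraries cannot give a two-sided p below 0.5.

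The 3 deposited columns show where the reads of this locus go. Reads on the strand opposite to Mir126b numbered 190601 in replicate 1 and 267586 in replicate 2, which is the Mir126a count less 15 and 29 reads. Those 15 and 29 reads are what remains for Mir126a when strand is ignored, since only they overlap Mir126a and not Mir126b. Without strand Mir126b had 0 reads in both libraries. The reads that Mir126a loses in that column made up 22.1% and 31.7% of all reads the files list as falling in more than 1 gene in replicates 1 and 2. The 0 and 4 opposite-strand reads at Mir126a equal the Mir126b counts, so no opposite-strand read lay in the free ends of Mir126a alone. A count is for the whole hairpin, so the 5p and 3p arms of either gene were not measured separately.

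**Figure D2:**
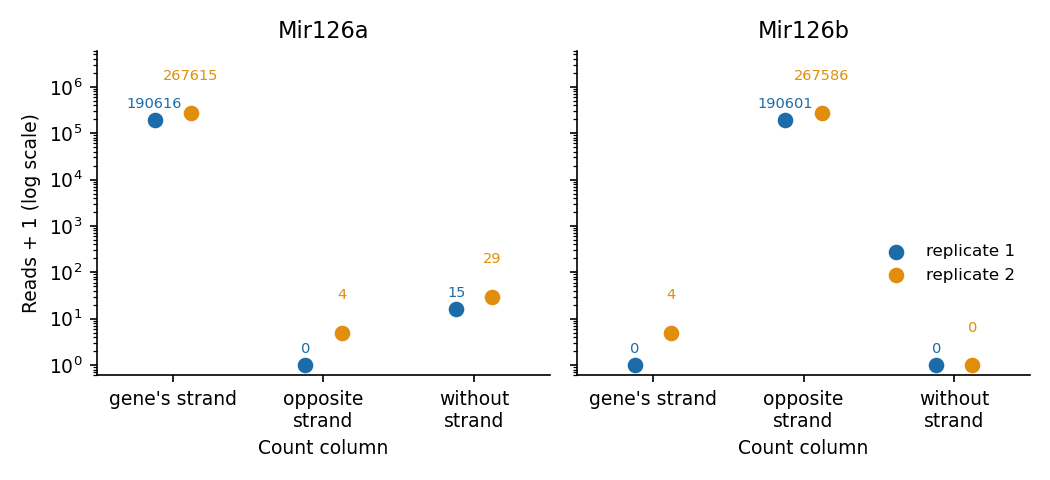
Reads + 1 (log scale) at Mir126a (left) and Mir126b (right) in each deposited count column, with replicate 1 in blue and replicate 2 in orange and the read number printed above each point. The large count appears on the gene's strand for Mir126a and on the opposite strand for Mir126b, and without strand Mir126a keeps 15 and 29 reads.

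Most microRNA genes had no read on the opposite strand, and the few that did had rates that varied widely. At Mir126a they came to 8.73 ppm (reads per 1000000 reads on the strand of the gene) over both libraries, with an exact 95% interval of 2.38 to 22.3. At the 114 genes with at least 1000 reads and no microRNA gene on the other strand, 55 opposite-strand reads stood beside 5706854 reads on the strand of the gene, or 9.64 ppm. Per library this was 9.04 ppm in replicate 1 and 10.2 ppm in replicate 2. Mir126b had 0 in replicate 1 (a limit of 15.7 ppm at 3 counts, 19.4 by the exact interval) and 14.9 ppm in replicate 2 (4.07 to 38.3). The pooled rate depends on the minimum of 1000 reads. With a minimum of 100 reads it was 32.5 ppm over 219 genes, since Mir122, known as the liver microRNA, alone had 72 and 48 opposite-strand reads beside 518 and 373 on its own strand in replicates 1 and 2. Only 9 of the 114 genes had such a read, and each of these had a higher rate than Mir126a. Depth fixed that order for all but Mirlet7b. The others had at most 79001 reads on their own strand, where 1 opposite-strand read already gives 12.7 ppm or more. Mirlet7b, a let-7 gene of similar depth, had 5 and 7 opposite-strand reads, or 20.0 and 26.2 ppm, in replicates 1 and 2. Mir130a, a microRNA gene linked to angiogenesis, had the most, with 13 and 9 reads. Mirlet7i, Mirlet7g, Mir23a, Mir23b and Mir143 had none, with limits at 3 counts of 4.81 to 8.09 ppm. These limits lie under the value at Mir126a but inside its interval of 2.38 to 22.3, so the rates are not separated. Whether the 4 reads come from a Mir126b transcript or from reads of the other strand was not tested.

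Mir126a and Mir126b are 1 of 32 pairs of microRNA genes that overlap by at least 20 bases on opposite strands, with overlaps of 49 to 93 bases. Reads were counted for 31 of these pairs, and in 22 of them the lower gene had none. By summed reads the pair ranked second, after Mir378a and Gm25301, where the lower gene had 0 and 1 reads. Mir191 over Gm24083, Mir30e over Mir30f and Mirlet7e over Gm25927 followed, all with 0 reads on the lower gene. Among the 12 pairs with at least 1000 reads, 4 had reads on both strands. Mir3107 had 211 and 123 reads beside 3232 and 4827 of Mir486, and Mir3065 had 2 and 2 reads beside 675 and 1168 of Mir338. As a share of the pair, these lower genes stood above Mir126b, and Gm25301 below it. The order of Gm25301 and Mir126b rests on 1 read and 4 reads, and no interval was computed for Gm25301, so it is not settled. The 8 pairs without a read on the lower gene were too shallow to be placed below Mir126b, since their limits of 3 counts all lay above its 8.73 ppm. In 11 of the 12 pairs the higher gene had 0 reads without strand in both libraries, and Mir126a was the exception.

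**Figure D3:**
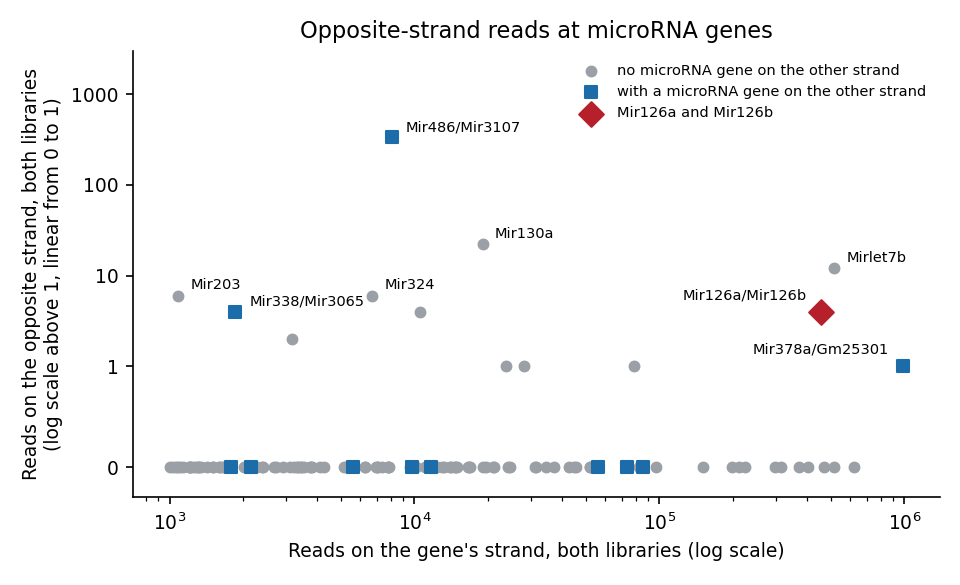
Reads on the opposite strand (log scale above 1, linear below) against reads on the gene's own strand (log scale), summed over both libraries, for microRNA genes with at least 1000 reads (for a pair, the higher gene with its lower partner). Mir126a, with 4 opposite-strand reads, lies between Mirlet7b, with 12, and the Mir378a pair, with 1, and most genes lie at 0.

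Mir126a ranked 6 by mean CPM, 7 in replicate 1 and 3 in replicate 2. These ranks are for counted reads only, and genes with copies elsewhere may stand too low. Its place among its neighbours was not fixed by these libraries. Mirlet7b at 69280 CPM ± 1200, Mirlet7g at 69037 CPM ± 539 and Mir23a at 62771 CPM ± 2635 stood above it by mean, and Mir23b at 54223 CPM ± 5299 below it (SD, n = 2 each). All 4 were above Mir126a in replicate 1 and below it in replicate 2. Mir143, of vascular smooth muscle, was at 49081 and 50331 CPM, below Mir126a in both libraries and outside its range. Mirlet7d at 28904 and 54650 CPM was also below Mir126a in both libraries, although its range overlapped that of Mir126a.

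**Figure D4:**
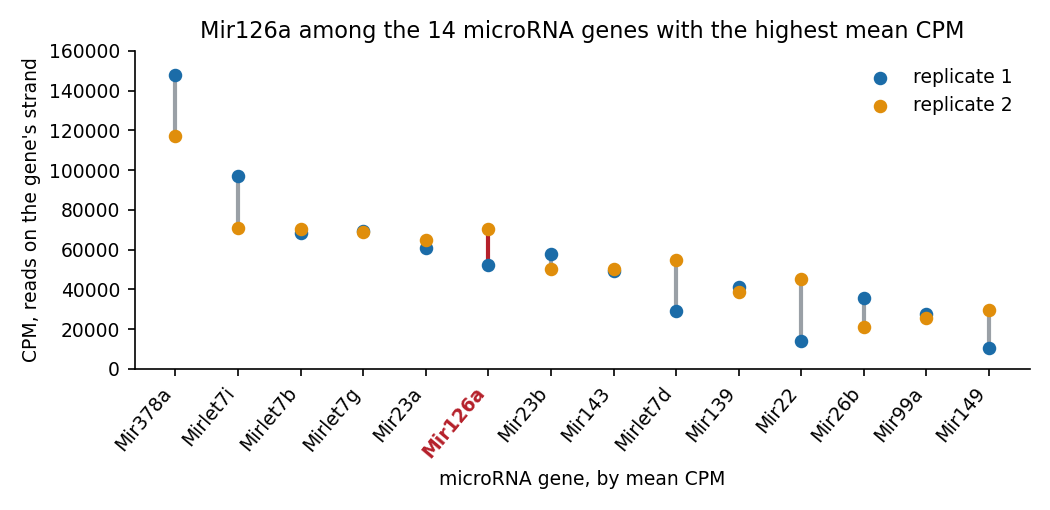
CPM on the gene's strand of the 14 microRNA genes with the highest mean, ordered by mean CPM, with replicate 1 in blue, replicate 2 in orange and a line joining them (red for Mir126a). Mir126a spans 52212 to 70228 CPM, a range that holds the values of Mirlet7b, Mirlet7g and Mir23a.

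Mir126a was lower in replicate 1 than in replicate 2, with a log2 ratio of -0.41 after TMM scaling, or 0.750 times the level in replicate 2. By a two-sided exact binomial test, the -log10 of the Benjamini-Hochberg adjusted p was 2021 over 320 genes. That test compares these 2 libraries with counting noise, and it called 64.4% of the genes tested, with 30.6% lower in replicate 1, so a call says little at this depth. The median absolute log2 ratio over these genes was 0.44, and 167 of them had a larger ratio than Mir126a in either direction. The common biological coefficient of variation in edgeR, 1 value pooled over the 320 genes, was 0.372. The name is that of edgeR, and the spread between the libraries may be technical. For the CPM of Mir126a alone the coefficient of variation was 20.8%, an unlike measure that rests on 2 values. In percentage points of the counts, Mir126a had the sixth widest change of all genes, at 5.22% in replicate 1 and 7.02% in replicate 2, after Mir22, Mir378a, Mirlet7i, Mirlet7d and Mir149. Mir126b did not pass the low-count filter and was not tested, so 1 of the 2 genes has a value here.

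With 2 libraries, likeness to Mir126a can only mean a similar ratio between them. The log2 ratio of its CPM was -0.43. Out of 64 other genes whose mean reached 1000 CPM, the 5 closest to it were Mir27b at -0.43, Mir29a at -0.44, Mir195a at -0.49, Mir130a at -0.50 and Mir486 at -0.52. Of these, Mir27b and Mir130a are linked to angiogenesis, Mir29a to matrix genes of fibroblasts and Mir486 to red blood cells. Other genes linked to angiogenesis whose mean reached 1000 CPM did not share this ratio, some being higher in replicate 1 (such as Mir17 and Mir221) and some lower (such as Mir27a and Mir34a). Mir27b was at 4874 CPM in replicate 1 and 6568 CPM in replicate 2.

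A list of 28 microRNA genes linked to endothelial cells or angiogenesis, many of them also made by other cells, held 20.3% of the counts in replicate 1 and 21.9% in replicate 2. Mir126a alone was 25.7% and 32.0% of the list's reads in replicates 1 and 2, and without Mir126a and Mir126b the remaining 26 genes held 15.1% and 14.9% of the counts. Detected in both libraries were 25 of the 28 genes, and Mir126b, Mir19a and Mir19b-1 were not. Besides Mir126a, the highest were Mir23a and Mir23b, paralogs known from endothelial cells and many other tissues, then Mir27b at 5721 CPM ± 1198, Mir322 at 4990 CPM ± 193 and Mir100 at 4165 CPM ± 348 (SD, n = 2 each). Mir221 of the Mir221 and Mir222 cluster, which restrains endothelial growth in culture, was at 2255 CPM ± 430, and Mir222 was at 179 CPM ± 84.8 (SD, n = 2 each). Of these 28 genes, 10 share at least 20 bases with a microRNA gene at another place, so that reads fitting both places are missing from their counts. Mir126a is not among the 10.

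The genes of this list did not move together between the libraries. Of the 24 that passed the low-count filter, 9 were higher in replicate 1, 11 were lower, and 4 were not called in the exact binomial test adjusted over all genes, where 33.8% of all genes were higher and 30.6% lower. The median log2 ratio of the 24 was -0.03, beside -0.02 over all 320 genes. Mir24-2, at 388 and 1389 counts, had the lowest ratio at -1.76, and Mir17, of the Mir17-92 cluster, had the highest at 0.94. Mir126a, at -0.41, lay between them.

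**Figure D5:**
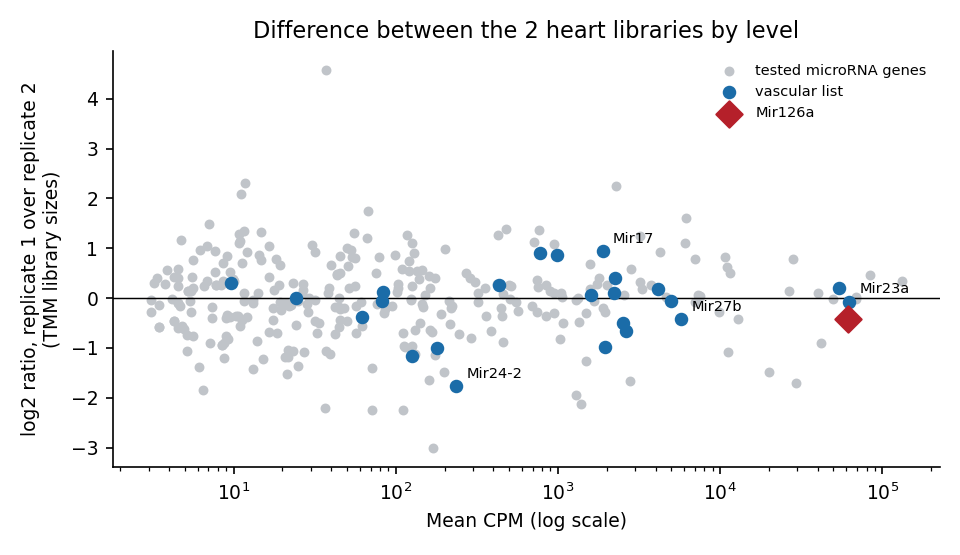
Log2 ratio of replicate 1 over replicate 2 after TMM scaling against mean CPM (log scale) for the 320 genes tested, with the list of endothelial and angiogenesis-linked genes in blue and Mir126a in red. Mir126a lies at -0.41, and the blue points fall on both sides of 0.

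Marker lists of other cells of the heart did not all differ between the libraries in the direction of Mir126a. Mir208a, the microRNA carried by the heart muscle myosin gene Myh6, was at 1329 CPM in replicate 1 and 4265 CPM in replicate 2. Of 7 heart muscle genes, 6 were detected at 2 CPM. That level is a low bar, which Mir122, the liver microRNA, also passed at 142 and 98 CPM in replicates 1 and 2. The number detected therefore does not tell the tissue. The heart muscle list held 0.403% and 0.694% of the counts, the lower share being in replicate 1, as for Mir126a. Its genes split as well: Mir208a at a log2 ratio of -1.67 and Mir208b at -2.23 were called lower in replicate 1, Mir499 at 0.07 and Mir1a-2 at 0.82 were called higher, and Mir133a-1 was not called. Its Mir1a and Mir133a genes share at least 20 bases with copies elsewhere, and reads that fit several copies are not in these counts. The smooth muscle list of Mir143 and Mir145a held 5.46% and 5.33%, the fibroblast list led by Mir21a 0.504% and 0.420%, the leukocyte list led by Mir150 0.897% and 0.719%, and the erythroid list led by Mir451a 0.322% and 0.296%. Each of these 4 lists had the higher share in replicate 1, unlike Mir126a, but only in the leukocyte list were all genes tested, 4 of 4, called higher there. Over all 320 genes tested, 33.8% were called higher in replicate 1 and 64.4% in either direction, so calls of 4 genes say little. In the fibroblast list Mir21a was higher at a log2 ratio of 1.25, Mir214 lower at -2.11 and Mir199b not called. In the erythroid list Mir451a was higher at 0.68, and Mir144 at -0.20 and Mir486 at -0.50 were lower. In the smooth muscle list Mir145a was higher at 0.92 and Mir143 lower at -0.02. Reads of Mir126a per read of the smooth muscle list were 0.956 in replicate 1 and 1.32 in replicate 2, and they were likewise lower in replicate 1 per read of the leukocyte list (5.82 and 9.77), the fibroblast list (10.3 and 16.7) and the erythroid list (16.2 and 23.7). Per read of the heart muscle list they were higher in replicate 1, at 13.0, than in replicate 2, at 10.1. The part that the mix of cells has in the lower Mir126a count of replicate 1 was not tested.

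Replicate 1 held 10362589 reads and replicate 2 held 10483233, of which 35.2% and 36.4% fell on the strand of a microRNA gene and 48.0% and 46.4% mapped to several places. Of all reads, Mir126a took 1.84% in replicate 1 and 2.55% in replicate 2.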

How the data were processed

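The authors deposited raw read counts per microRNA gene, 1 file per library with no header and 3 columns (without strand, on the strand of the gene, on the opposite strand). Per the deposited text beside each file, reads were placed on mm10 with GENCODE M21; the aligner and counter are not given in the sources used here. The 4 rows that name no gene (unmapped, mapped to several places, no feature, ambiguous) hold 64.8% and 63.6% of reads in replicates 1 and 2 and were left out of totals and tests. CPM was computed here from the strand-of-gene column over its 3650782 and 3810675 gene reads.

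Members and lists were chosen with earlier results of these data known. The text names both genes, the 3 genes on either side of Mir126a by mean CPM, the 5 closest in library ratio, the top members of each list and the largest pairs; further genes were picked after their values were seen. Libraries were compared per gene with an exact binomial test against TMM library sizes (edgeR 4.0.16 in R 4.3.3, filterByExpr with a minimum count of 10), adjusted over all genes at a threshold of 0.05, and tested on simulated data. DESeq2 1.42.0 size factors were an alternative. Shares have exact Clopper-Pearson 95% intervals, and the floor is 3 counts (0.822 and 0.787 CPM); both cover counting error only. Structures are from RNAfold in ViennaRNA 2.7.2. Python 3.11.15 and SciPy 1.17.1 were used.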

Additional observations from a re-analysis of the deposited data

How the results depend on the processing

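Of 36 alternatives to the results above, 33 kept the direction and the call or stayed within the spread between the libraries. Some of these could not have moved, so the number overstates how firm the results are. With 2 libraries, leaving out 1 returns the level or ratio of the other, which lies within that spread by construction. The opposite-strand column of Mir126a holds the same reads as the Mir126b count, so using it for Mir126b changed nothing. Of the alternatives that did differ, 2 came from counting without strand, where reads shared by overlapping genes enter neither. There Mir126a fell to 7.58 CPM, and its log2 ratio of replicate 1 over replicate 2, from 15 and 29 reads, was -0.89 with an adjusted p of 0.0787 in the exact binomial test. Under the other 4 scalings and filters this ratio lay between -0.49 and -0.39, called each time. Leaving out either library, the Mir126a level was 52212 or 70228 CPM, Mir126b 0 or 1.05 CPM, the log2 ratio of Mir126a over Mir126b 15.47 or 16.67, the pairs with a count 29 or 30, and the detected genes of the list of 28 were 25 or 26. Chosen after seeing the data, a minimum of 10000 reads gave 6 genes, and a minimum of 100 reads gave 16 in place of 9, with a higher rate of opposite-strand reads than Mir126a. Depth fixed that order for all of them but Mirlet7b. No paired analysis was possible because there is 1 group. Depth limits Mir126b: it rests on 0 and 4 reads.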

Other observations

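The seeds of the mature arms that RefSeq lists for both genes were searched in the longest annotated 3′ UTR of 21039 protein-coding genes. These UTRs are from GENCODE M21 and were searched on the strand of the transcript only. The site CGGTACG, complementary to bases 2 to 8 of miR-126a-3p, occurred in 33 of them, or 0.157%, and GGTACGC, the site of miR-126b-3p, in 98, or 0.466%. The site GTAATAA of miR-126b-5p occurred in 11.2% and CTACCTC, the let-7 site, in 9.02%. Over the first 1000 bases of the 10247 UTRs of at least that length, the shares were 0.0976%, 0.342%, 6.21% and 6.51% in the same order.

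The longest UTRs of Spred1, Pik3r2 and Vcam1, known targets of miR-126, held none of the 3 sites complementary to bases 2 to 8. A shorter site, GGTACG, complementary to bases 2 to 7 of miR-126a-3p and searched after that result was seen, occurred in 2.88% of UTRs. The UTR of Spred1 held it once. The A that follows it there pairs with base 1 of miR-126a-3p, a U, so that match spans bases 1 to 7. The stretch lies at chr2:117178446-117178467 on the plus strand and is printed with the site in capitals.
Spred1: ttaactaaatgtaaGGTACGaa
These are matches of letters, and no target message was measured in these libraries.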
